A study of Drosophila melanogaster with 2 samples.

Results

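The bound introns of shorter genes are the intronic sites at which GFP-tagged Repo was recovered inside protein-coding genes of modest length. They were taken from the authors' optimal peak list on the genome build dm6 by position alone. A peak was included when its summit lay over 500 bp from every transcription start site (TSS) of protein-coding genes, in no annotated exon, and inside protein-coding genes that were all shorter than 40 kb. These conditions were met by 480 of the 2697 optimal peaks (17.8%, Wilson 95% interval 16.4 to 19.3%), which lay in 380 host genes. The other optimal peaks comprised 1487 promoter peaks, 297 peaks in introns of genes of 40 kb or more, 329 outside protein-coding genes and 104 in exons.

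The data are chromatin immunoprecipitation followed by sequencing (ChIP-seq) from whole Drosophila melanogaster embryos, both sexes pooled, aged 0 to 24 hours. All samples came from 1 stable transgenic line, repo-GFP, in which GFP is fused to the C-terminus of Repo, and the precipitation used an antibody against GFP. There was 1 group of 2 biological replicates, labelled 1 and 3, and no untagged line, other stage or treatment was analysed here. Whole embryos are a mixture in which glia are a minority of the cells, and peak lists hold no expression values by which the cell types could be checked. Read numbers per library are unknown from these lists, so intervals given below cover counting error over peaks, genes or windows only.

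Repo is a homeodomain transcription factor made by nearly all lateral glia of the fly, where it acts with the zinc-finger factor Gcm and other regulators to keep cells in the glial fate. Homeodomain proteins bind short sequences rich in A and T, and CAATTA is the site reported for Repo. Introns of fly genes, and first introns in particular, are a common place for enhancers, the sequences through which transcription factors act on a promoter at a distance.

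None of the 20 strongest sites was in a gene of the glial lists described further on. Those lists held only 5, 0 and 1 of the 380 host genes, so their absence among 20 sites does not set the strongest sites apart. The highest signal value, 1243, was in CG11050 (FBgn0031836, 2L 6611011 to 6617117), followed by 1163 in Lk6 (FBgn0017581, 3R 11750931 to 11764457), which encodes a kinase of the translation factor eIF4E. CG9663 had 899, CG32772 had 811, and NFAT, which encodes a Rel-domain transcription factor, had 566. The sequences around these 5 summits are shown as examples from the 7 strongest of the 480 sites, the others being those of Adf1 and of the gene pair HmgD and HmgZ. Each is 151 bases of the plus strand of dm6 (RefSeq assembly of release 6) with the summit in the middle, and capitals mark the matches to the 14 fixed sites named further on.
CG11050, chr2L:6612650-6612800: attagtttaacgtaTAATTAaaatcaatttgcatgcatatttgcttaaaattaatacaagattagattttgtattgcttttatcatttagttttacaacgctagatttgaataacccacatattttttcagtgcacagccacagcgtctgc
Lk6, chr3R:11760973-11761123: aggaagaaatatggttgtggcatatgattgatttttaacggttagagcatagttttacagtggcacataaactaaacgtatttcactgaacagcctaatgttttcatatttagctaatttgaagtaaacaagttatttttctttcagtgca
CG9663, chr2L:3302110-3302260: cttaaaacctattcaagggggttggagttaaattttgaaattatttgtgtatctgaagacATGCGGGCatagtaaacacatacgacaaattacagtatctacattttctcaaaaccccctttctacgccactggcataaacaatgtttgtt
CG32772, chrX:4910311-4910461: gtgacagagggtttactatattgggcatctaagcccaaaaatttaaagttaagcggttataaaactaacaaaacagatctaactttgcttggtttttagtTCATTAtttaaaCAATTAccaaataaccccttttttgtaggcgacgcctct
NFAT, chrX:13640446-13640596: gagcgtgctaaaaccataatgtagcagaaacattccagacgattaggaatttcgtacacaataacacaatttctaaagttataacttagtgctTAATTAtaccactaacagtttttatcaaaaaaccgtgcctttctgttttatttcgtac
The window of CG32772 held CAATTA together with TAATGA read on the minus strand, and those of CG11050 and NFAT held TAATTA. The window of CG9663 held the Gcm site, and the window of Lk6 held none of the sites.

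The reported Repo site lay closest to the summit in CG4733, CG13917, Ggt-1, PAN3 and aru, with the centre of CAATTA 2.5, 3.5, 4.5, 4.5 and 5.5 bp away. They are shown in windows of 61 bases because they are the sites at which the sequence and the summit coincide most closely. Capitals mark CAATTA or its reverse complement and, at the end of the PAN3 window, the GAGA factor site on the minus strand.
CG4733, chr3R:19892122-19892182: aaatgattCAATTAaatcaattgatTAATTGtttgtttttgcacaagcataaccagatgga
CG13917, chr3L:1578755-1578815: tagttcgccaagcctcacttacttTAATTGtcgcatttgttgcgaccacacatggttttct
Ggt-1, chrX:18507287-18507347: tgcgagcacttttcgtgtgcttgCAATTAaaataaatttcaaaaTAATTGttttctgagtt
PAN3, chr3L:3083637-3083697: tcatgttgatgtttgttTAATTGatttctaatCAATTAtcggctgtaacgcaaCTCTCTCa
aru, chr2L:867459-867519: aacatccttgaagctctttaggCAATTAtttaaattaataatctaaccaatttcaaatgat
CAATTA occurred in both orientations within the windows of CG4733, Ggt-1 and PAN3. The signals of these sites were 117, 117, 173, 102 and 208, and none of them was among the 20 highest sites. Ggt-1 encodes a gamma-glutamyl transpeptidase and PAN3 a subunit of a deadenylase that shortens the poly(A) tails of mRNA.

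Shorter windows, 50 bases to each side, are shown for zfh1, Gs2 and loco as examples of the 5 genes of the glial regulator list that hosted a site, and none is shown for apt and aop.
zfh1, chr3R:30781763-30781863: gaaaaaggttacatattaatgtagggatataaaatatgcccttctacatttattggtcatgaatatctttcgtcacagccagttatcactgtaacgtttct
Gs2, chrX:11423320-11423420: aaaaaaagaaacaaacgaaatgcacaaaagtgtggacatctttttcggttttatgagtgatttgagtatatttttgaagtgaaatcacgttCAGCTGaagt
loco, chr3R:22627122-22627222: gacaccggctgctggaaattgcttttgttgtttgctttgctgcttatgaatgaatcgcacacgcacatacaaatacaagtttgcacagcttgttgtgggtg
None of these held CAATTA within 50 bp of the summit, and the Gs2 window held the E-box CAGCTG, in capitals. In the wider window of 100 bp either side, Gs2 did hold CAATTA.

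Signal values, which are the authors' own and whose scale is not stated in the sources used here, were spread much like those of the other optimal peaks. The median was 126 (exact 95% interval 119 to 133) with quartiles of 101.4 and 179 and a range of 84.2 to 1243. The median was 123 in introns of longer genes, 123 at promoters, 118 outside protein-coding genes, 121 in exons and 123 over all optimal peaks. No optimal peak was below 84.01, and pooled-list peaks of this location left out of the optimal list reached at most 83.94. All classes thus share a floor, which limits how far their lower values can differ. The bound introns of shorter genes made up 18 of the 100 highest optimal peaks, 91 of the 500 highest (18.2%) and 248 of the 1348 highest (18.4%), close to their 17.8% of the whole list.

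Both replicates placed the strongest sites near the top of their own lists. CG11050 had a signal of 581 in replicate 1 and 666 in replicate 3 and ranked 5 in each. Lk6 had 523 and 639.6 and ranked 8 in replicate 1 and 6 in replicate 3. CG9663 ranked 14 and 13, and CG32772 ranked 18 in both. Adf1, a gene for a MADF-domain transcription factor, had a pooled signal of 611 and was less even, ranking 68 in replicate 1 and 27 in replicate 3. The site that HmgD and HmgZ share, in genes for high mobility group box chromatin proteins, had 607 and ranked 48 and 35. NFAT ranked 43 and 56. CG31635 had a pooled signal of 544 and ranked 42 and 69.

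The remaining 12 of the 20 highest sites had signals between 381 and 538. They lay in CG32486 (538), Trl (516), CG9837 (502), CG3726 (499.6), Lrch (497), Reph (495), for (467), LPCAT (441), wde (429), Gug (416), the gene pair Hyls1 and chif (398) and Csk (381). Trl encodes the GAGA factor, wde a partner of a histone H3 methyltransferase and Gug the corepressor Atrophin. The gene for encodes a cGMP-dependent protein kinase, LPCAT an acyltransferase of membrane lipids and Csk a kinase that inhibits Src. All 12 ranked between 48 and 121 in both replicates' own lists. Of the 20, 18 lay in a first intron of at least 1 transcript, and CG11050 and Trl did not.

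**Figure D1:**
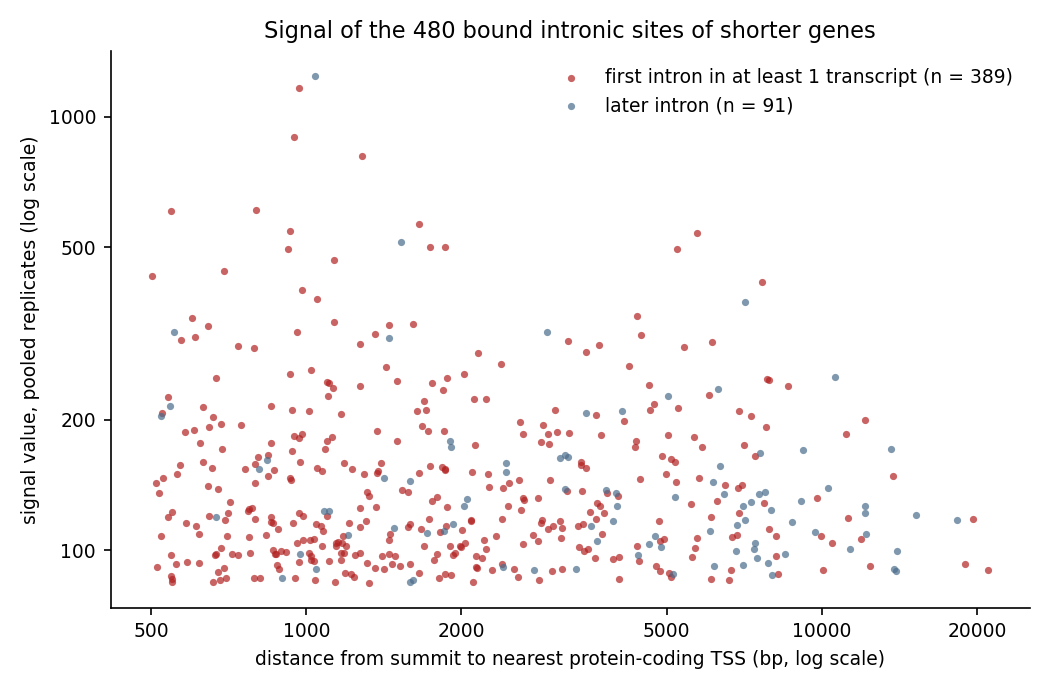
Signal value of each of the 480 bound intronic sites (vertical, log scale, the authors' pooled value) against the distance from its summit to the nearest protein-coding TSS (horizontal, bp, log scale), with red points for summits in a first intron of at least 1 transcript and blue points for later introns. The 4 sites above 800 lie between 945 and 1284 bp from a TSS, and sites beyond 5000 bp reach 538.

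Replicate support was close to that of the whole optimal list. Each replicate's own list was limited to its 2697 highest peaks, as many as the optimal list holds. The summit lay inside such a peak for 398 of 480 sites in replicate 1 (82.9%, against 82.7% of all optimal peaks) and for 424 in replicate 3 (88.3%, against 85.4%). Both replicates held 346 sites (72.1%, 67.9 to 75.9%), against 69.5% of all optimal peaks. In the full lists of 30000 peaks, which contain background by design, all 480 were found in replicate 1 and 477 in replicate 3. The authors derived the optimal list from the same 2 libraries, and these shares describe the list and are no independent check.

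Among sites found in both replicates Spearman's rank correlation of the 2 signals was 0.631 across 477 sites of the same 2 libraries, given as a description. Replicate 1's summit was within 50 bp of the pooled summit at 421 of 480 sites (87.7%) and replicate 3's at 432 of 477 (90.6%). The position rule gave 465 sites (17.2%) when applied to replicate 1's own 2697 highest peaks and 498 (18.5%) when applied to replicate 3's. Their median TSS distances were 1783 and 1898 bp and their shares in first introns 80.4% and 79.9%. With 1 group of 2 replicates no test over samples was possible, and differences between classes of peaks below are given with counting intervals and were not tested.

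**Figure D2:**
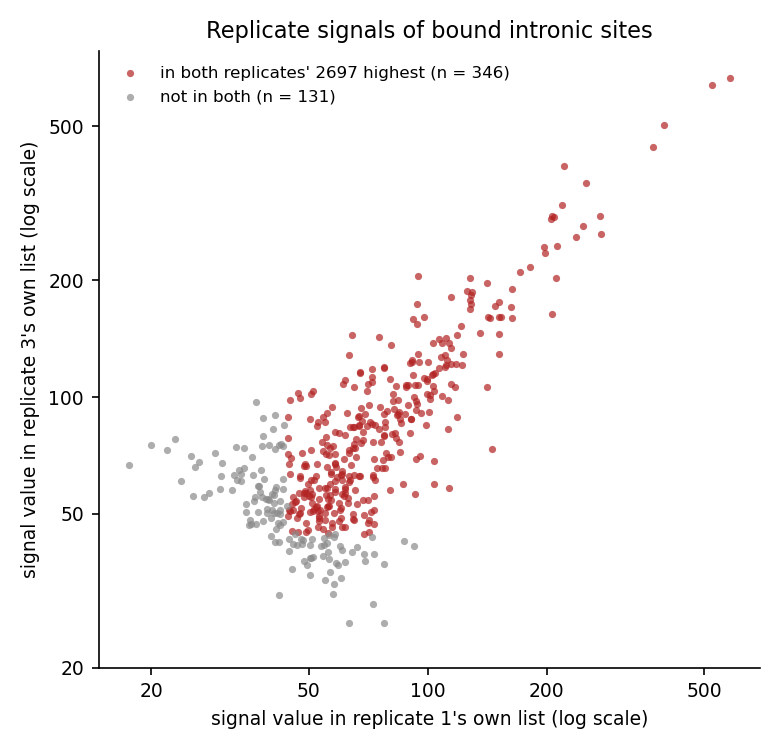
Signal value in replicate 3's own list (vertical, log scale) against that in replicate 1's own list (horizontal, log scale) for the 477 sites found in both, with red points for the 346 sites inside the 2697 highest peaks of both replicates and grey points for the others. The 4 sites of highest pooled signal are also the 4 highest of these sites in each replicate.

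Sites lay near TSSs, though the rule leaves out the 500 bp around each. The median distance was 1859 bp (1676 to 2095 bp). It was 2354 bp (2254 to 2452 bp) for the 4684 weak peaks of the same location, which are peaks of the pooled list that meet the same position rule and were not kept in the optimal list. Over the 20.9 Mb of eligible sequence, meaning every base that meets the rule, the median was 3118 bp. The density was 40.7 sites per Mb between 501 and 1000 bp, 31.5 between 1001 and 2000 bp, 18.9 between 2001 and 5000 bp and 14.3 beyond. These bins held 119, 135, 127 and 99 sites. The median signal did not follow the density and was 136, 118, 126 and 126 in the same bins, with overlapping intervals. The site farthest from a TSS lay 21019 bp away in dnt, which encodes a receptor of the Ryk family. Its signal was 89.9 and it ranked 6386 in replicate 1 and 1673 in replicate 3.

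Sites at the limits of the rule were as follows. Just inside 500 bp were wde at 503 bp with a signal of 429 and CG31523 at 512 bp with 143. Just outside were mrj at 497 bp with 120.2 and pAbp at 493 bp with 231. Just inside the length limit was NFAT, 39824 bp long with sites of 566, 319 and 98.6, and then Mob2, 39477 bp long with a site of 151. Just outside were RhoGAP19D, 40740 bp long with peaks of 178, 86.9 and 85.9, and siz, 40910 bp long with peaks of 86.4, 85.7 and 84.7.

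First introns held most of the sites. The summit was in the first intron of at least 1 transcript at 389 of 480 sites (81.0%, 77.3 to 84.3%) and in the first intron of every overlapping transcript at 283 (59.0%). Of the weak peaks of the same location 66.4% (65.0 to 67.7%) were in a first intron, as were 53.5% of eligible bases. The density was 34.9 sites per Mb in first introns and 9.39 in later introns. The intervals of the bound sites and the weak peaks did not overlap.

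The share was also taken within bins of distance. Within 501 to 1000 bp of a TSS, 93.3% of sites (87.3 to 96.6%), 79.6% of weak peaks (76.9 to 82.1%) and 73.4% of eligible bases were in first introns. Between 1001 and 2000 bp the values were 87.4%, 75.04% and 64.3%, and between 2001 and 5000 bp 81.1%, 64.4% and 53.2%. Beyond 5000 bp they were 57.6% (47.7 to 66.9%), 50.3% (47.5 to 53.2%) and 38.7%, and there the intervals of sites and weak peaks overlapped. In first introns the density went down with distance through 51.7, 42.8, 28.8 and 21.3 sites per Mb. In later introns it showed no such order, at 10.3, 11.1, 7.64 and 9.89.

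**Figure D3:**
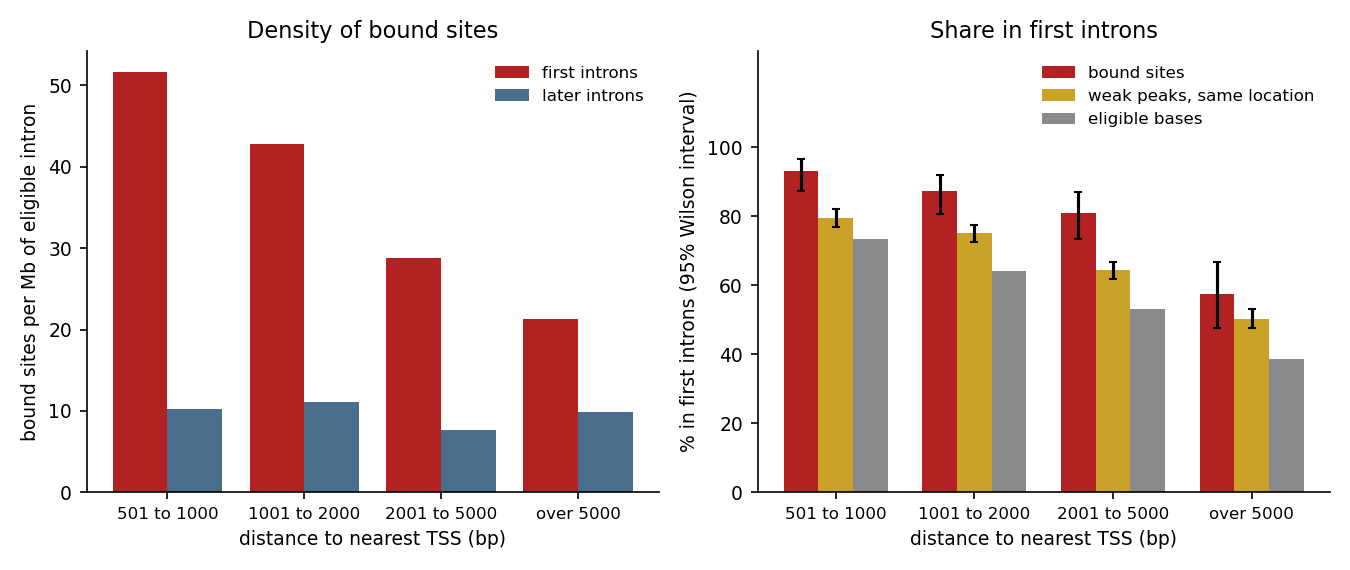
Left, bound sites per Mb of eligible intron by distance to the nearest TSS (bp), with red bars for first introns and blue bars for later introns. Right, the share in first introns of bound sites (red), of weak peaks of the same location (yellow) and of eligible bases (grey), with 95% Wilson intervals on the peaks. The bound sites are the highest of the 3 in every distance bin, and beyond 5000 bp their interval overlaps that of the weak peaks.

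Sites also lay towards the start of their host. The summit was at a median of 29.6% of the gene's length from its start (26.3 to 32.3%), against 35.6% (34.4 to 36.6%) for weak peaks and 42.7% for eligible bases. It was nearer the start than the end of the gene at 368 sites (76.7%), against 67.0% of weak peaks and 59.0% of eligible bases. The intron around the summit, measured between the nearest exons of any transcript, had a median of 3828 bp (3413 to 4293 bp), against 4104 bp (3944 to 4296 bp) for weak peaks. The nearest exon was 887 bp away, against 877 bp. The strongest site was an exception, in an intron of CG11050 of 140 bp.

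The share of pooled-list peaks kept in the optimal list was taken by the same classes. In introns of shorter genes 480 of 5164 pooled-list peaks were kept (9.30%, 8.53 to 10.1%), against 8.99% of the whole pooled list. It was 11.1% (10.1 to 12.2%) in first introns and 5.46% (4.47 to 6.66%) in later introns. Promoters kept 17.1%, introns of longer genes 7.93%, sequence outside protein-coding genes 8.35% and exons 1.23%. By TSS distance the kept share was 11.6%, 10.4%, 8.21% and 7.62% in the 4 bins from nearest to farthest.

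On the X chromosome 103 of 463 optimal peaks (22.3%) were bound introns of shorter genes, at 28.3 per Mb of eligible sequence and a median signal of 138. The autosomal arms 2L, 2R, 3L and 3R held 75, 92, 99 and 110, at 20.1 to 24.0 per Mb, with median signals of 117 to 129. Chromosome 4 held 1 site in 0.326 Mb of eligible sequence.

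Of 8474 genes with at least 1 eligible base, 380 hosted a site (4.48%). Host genes had a median length of 14465 bp, and 7441 eligible bases (6504 to 8827) against 405 (388 to 428) over all eligible genes. The share that hosted a site was 0.0872% of genes with under 500 eligible bases, 2.91% with 500 to 1999, 8.87% with 2000 to 4999, 16.8% with 5000 to 9999 and 21.7% with 10000 or more. Most hosts, 290, had 1 site; 66 had 2, 17 had 3, 3 had 4, 1 had 5 and 3 had 6. The summit was inside 2 or more protein-coding genes at 27 sites.

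The hosts with the most sites were CHES-1-like, apt and simj with 6 each. CHES-1-like, a forkhead transcription factor gene on X, had signals of 298, 220.4, 117, 104, 104 and 96.3, all in first introns. Its strongest site was uneven, with 94.8 in replicate 1 (rank 512) and 205.2 in replicate 3 (rank 114). The transcription factor gene apt had 204, 137, 133, 96.0, 93.0 and 85.7, and its weakest site ranked 10512 in replicate 1 and 1551 in replicate 3. simj encodes the p66 subunit of the NuRD chromatin remodelling complex and had 199.3, 160.03, 141, 112, 108 and 96.8. The sites of 160.03 and 108 in simj lay in 1 peak of replicate 1, as did those of 112 and 96.8, so they were not separate sites in that library.

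The kinase gene msn, which acts in JNK signalling, had 5 sites of 163, 131, 108, 100.7 and 99.8, all in later introns. The bHLH factor gene crp had 4 sites, of 192, 155, 104 and 95.9, and CG13917 had 4, of 184, 159.5, 117 and 108.5. Hipk, which encodes a kinase of homeodomain proteins, had 4 sites of 159, 127, 100.4 and 92.0. HmgZ, NFAT, Trl, Lrch and babos had 3 each, and the highest of babos was 315. Another optimal summit lay within 1000 bp of 70 sites (14.6%) and within 5000 bp of 263 (54.8%), with a median distance of 4247 bp to the next optimal summit. These values were not taken for all optimal peaks or for other classes. They therefore do not show whether these sites are closer together than other peaks.

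Host genes often had a bound promoter as well. An optimal summit lay within 500 bp of a TSS of 147 of the 380 hosts (38.7%, 33.9 to 43.7%), against 1232 of 8094 eligible genes that hosted none (15.2%, 14.5 to 16.02%) and 16.3% of all eligible genes. The shares were also taken by gene size. With 2000 to 4999 eligible bases 40% of hosts (29.96 to 51.0%) and 15.5% of the others (13.1 to 18.1%) had a bound promoter, and with 10000 or more 42% (34.4 to 50%) and 16.02% (13.2 to 19.3%). With 500 to 1999 eligible bases the values were 26.0% (15.9 to 39.6%) and 18.3% (16.5 to 20.2%), and the intervals overlapped.

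CHES-1-like, apt, simj, msn, crp and Hipk had a bound promoter and CG13917 had none. Of the 4 hosts with the highest signals CG11050 had a bound promoter and Lk6, CG9663 and CG32772 had none. The TSS nearest to the summit belonged to a host at 409 of 480 sites (85.2%). The gene of that TSS had an optimal summit within 500 bp of any of its TSSs at 199 sites (41.5%, 37.1 to 45.9%). By distance this last share was 37.0%, 45.2%, 50.4% and 30.3% from the nearest to the farthest bin.

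**Figure D4:**
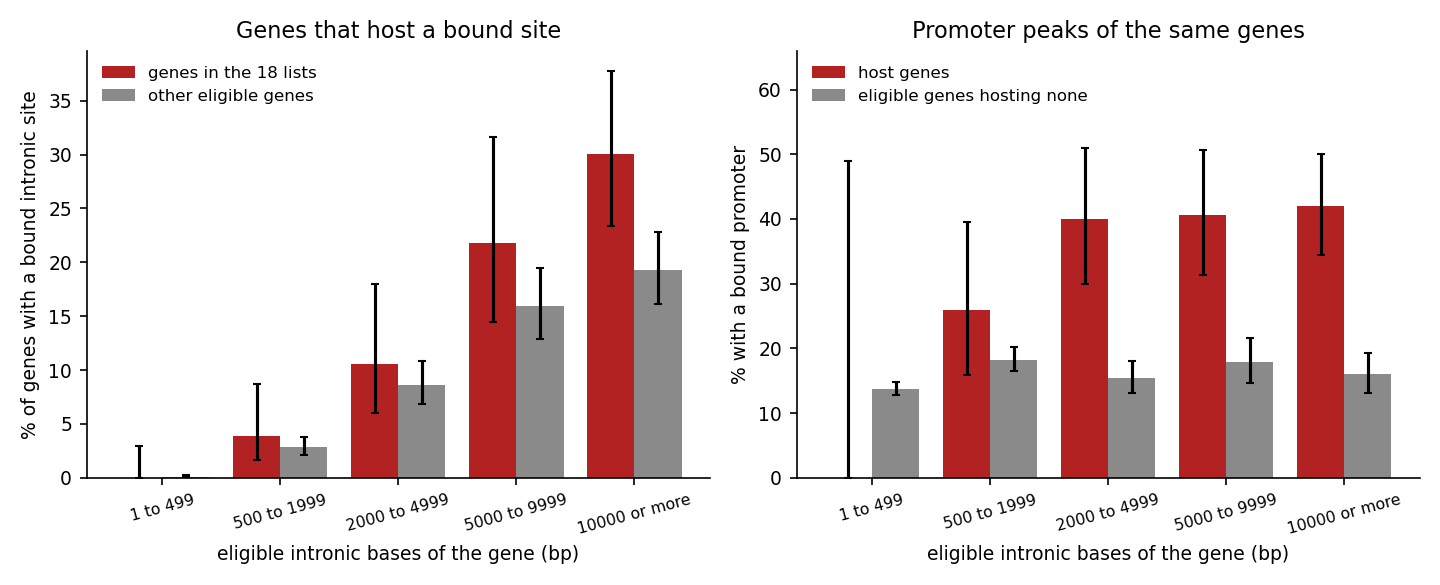
Left, the share of genes that host a bound intronic site among genes in the 18 lists (red) and other eligible genes (grey), by the number of eligible intronic bases of the gene (bp). Right, the share with an optimal summit within 500 bp of a TSS among host genes (red) and eligible genes that host none (grey). Bars carry 95% Wilson intervals, those of genes with under 500 bases rest on 4 hosts, and from 2000 bases upwards the host bars stand at 40 to 42% against 15.5 to 17.9%.

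Glial genes were hosts in part. Of 15 glial regulators and pan-glial genes that could host a site, 5 did (33.3%, 15.2 to 58.3%), against 4.48% of all eligible genes. The list's genes are larger, with a median of 4406 eligible bases against 405. zfh1, a zinc finger and homeodomain factor gene, had 309 in a later intron, with 146 in replicate 1 (rank 175) and 73.5 in replicate 3 (rank 1121). Gs2, for a glutamine synthetase, had 226 in its first intron, 538 bp from its TSS, with 107 in replicate 1 and 119 in replicate 3. apt had its 6 sites, aop, an Ets-domain repressor gene, had 175 and 99.5, and loco, for a regulator of G-protein signalling, had 119 and 97.9.

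The other glial lists had 0 and 1 hosts, counts too small to set them apart from the 4.48% of all eligible genes. None of 20 surface glia and septate junction genes hosted a site, which with the Wilson interval allows a share of up to 16.1%. Of 13 astrocyte, cortex and wrapping glia genes 1 was a host (7.69%, 1.37 to 33.3%). It was Ndae1, an anion exchanger gene, with weak sites of 86.5 and 85.3. Both lists' intervals include 4.48%, and their genes had medians of 4094 and 6312 eligible bases against 405. The gene repo itself hosted none of the 480 sites.

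Lists of other cell types had between 0 and 2 hosts each, from small numbers of genes. elav, an RNA-binding protein gene of neurons, was the host among 16 neuron genes, with 189.8 at a summit that also lies in the gene arg. insc, which orients the spindle of neuroblasts, was the host among 8 neuroblast genes with 106, in an intron shared with sktl. mbc, needed for myoblast fusion, had 115.3 and Tm1, a tropomyosin gene, had 92.9, the hosts among 14 muscle genes. rib, a BTB-domain factor gene of tracheal and salivary development, had 224 and crb, a gene of apical polarity, 119.98, among 14 epidermis and trachea genes. cad, a homeodomain gene, had 90.1 as the host among 8 gut, fat body and Malpighian tubule genes, and no hemocyte gene of 12 was a host. The shares were 6.25% for neuron, 12.5% for neuroblast and for gut, and 14.3% for muscle and for epidermis, against 4.48% of all eligible genes. The lists' medians were 1576 to 8071 eligible bases, against 405. Counts this small leave wide intervals. For each of these lists the interval includes 4.48% and overlaps that of the glial regulator list (15.2 to 58.3%). Differences between the lists were not tested.

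Of 601 eligible genes in any of the 18 lists, 81 hosted a site (13.5%, 11.0 to 16.4%), with a median of 2915 eligible bases against 405 over all. At 10000 or more eligible bases 30.1% (23.4 to 37.8%) of listed genes and 19.3% (16.2 to 22.8%) of other genes were hosts. At 5000 to 9999 bases the values were 21.8% (14.5 to 31.6%) and 15.9% (12.9 to 19.4%), and at 2000 to 4999 bases 10.6% and 8.65%, with overlapping intervals.

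The Wnt, Hedgehog, Dpp and JAK-STAT list had 12 hosts of 55 genes (21.8%, 13.0 to 34.4%). This compares with 4.48% of all eligible genes, and the list's genes had a median of 2905 eligible bases against 405. Of the Dpp pathway genes among them, the ligand gene dpp had 213, the receptor gene wit 179, the Smad gene Mad 329, the inhibitory Smad gene Dad 135 and 129, and the extracellular regulators sog and cv-2 175 and 171 at their highest. Of the Wnt pathway, arr, for a co-receptor, had 103 and Notum, for an enzyme that inactivates Wnt, 132. ptc, the Hedgehog receptor gene, had 92, and Socs36E, a JAK-STAT inhibitor gene, 209.

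The Hippo, JNK, insulin and Tor list had 10 hosts of 48 (20.8%, 11.7 to 34.3%), against 4.48% of all eligible genes, with a median of 1714 eligible bases against 405. Of the Hippo pathway ex had 170.3, kibra 152 and 132, and the kinase gene wts 109.9. Of the JNK pathway kay, which encodes Fos, had 171, the phosphatase gene puc 168 and 138, and the TNF ligand gene egr 91. Akt had 101.1 and REPTOR, a factor held back by Tor, 179. The Egfr, Fgf, Pvr and Ras-MAPK list had 7 hosts of 41 (17.1%, 8.53 to 31.3%), against the same 4.48%, with a median of 5159 eligible bases. S, needed for processing of Egfr ligands, had 295, 249 and 107, the ligand genes vn and Krn had 186 and 98, the adaptor gene drk 215 and the Ets antagonist edl 154 and 145. The Notch list had 3 hosts of 17 (17.6%, 6.19 to 41.0%), against 4.48%, with a median of 897 eligible bases. They were the receptor gene N with 251, neur, a ubiquitin ligase gene, with 157 and fng, a glycosyltransferase gene, with 87.

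The list of homeobox and other patterning factors had 1 host, and that of other transcription factors had 14. Of 47 homeobox and other patterning factor genes 1, cad, was a host (2.13%, 0.377 to 11.1%), although their median of 9287 eligible bases was the highest of the 18 lists. Of 76 zinc finger, bHLH, forkhead and other factor genes 14 were hosts (18.4%, 11.3 to 28.6%), against 4.48% of all eligible genes and with a median of 5822 eligible bases, led by Trl with 516, Mad with 329 and Hr3, a nuclear receptor gene, with 247. The difference between these lists was not tested. Chromatin and RNA regulators had 12 hosts of 84 (14.3%, 8.37 to 23.3%) and a median of 1054 eligible bases, with Mi-2, for a NuRD ATPase, at 302 and 143, and the Polycomb and trithorax group genes Psc at 228, trx at 211 and ph-p at 149.9. Metabolism and transport genes had 5 of 65 (7.69%, 3.33 to 16.8%) and a median of 1288, among them bmm, for a triglyceride lipase, at 265 and 154 and Lsd-2, for a perilipin of lipid droplets, at 243.

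The share of windows with the reported Repo site at the sites lay within its counting error of that beside them. CAATTA, read on both strands, was in 84 of 480 windows reaching 100 bp to each side of a summit (17.5%, 14.4 to 21.2%). It was in 18.5% (16.2 to 21.1%) of the 960 flanks centred 1000 bp to either side. Weak-peak windows held it in 18.9% and windows at promoter peaks in 17.4%. Of 87798 unbound windows of the same length tiled over eligible introns, 22.8% (22.6 to 23.1%) held it, an interval above that of the sites. The mean GC content of these windows differed, at 37.9% for the sites, 41.3% for flanks, 43.8% for weak peaks, 40.2% for promoter peaks and 39.8% for unbound windows. Of the flank centres, 66.6% met the position rule, 22.5% lay in an exon and 24.1% within 500 bp of a TSS. For CAATTA, the order of sites and flanks turned in windows of 50 bp either side, at 9.38% and 9.27%, with hosts under 20 kb, at 20.1% and 17.2%, and with either replicate left out. Sites with CAATTA had a median signal of 134 (117 to 158) and those without 123 (118 to 132).

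The other homeodomain sites gave similar values. TAATTA was in 13.5% of site windows, 13.0% of flanks and 15.8% of unbound windows, and TAATGA in 14.4%, 11.1% and 15.4%. These 3 sites share letters and can overlap. At least 1 of them was in 38.1% of site windows (33.9 to 42.6%), 36.0% of flanks and 43.8% (43.5 to 44.2%) of unbound windows. Here too the interval of the unbound windows lay above that of the sites, and the difference was not tested.

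Sequences of promoter-binding factors were rare in these introns. The Dref site TATCGATA was in 3 of 480 windows (0.625%, 0.213 to 1.82%), against 8.47% (7.16 to 9.998%) of windows at promoter peaks and 0.384% of unbound windows. The M1BP site GGTCACAC was in 2 (0.417%, 0.114 to 1.51%), against 5.38% (4.34 to 6.65%) and 0.287%. Flanks held the Dref site in 1.04% of windows and the M1BP site in 0.833%. One of the Dref matches, in capitals, was in the first intron of Stt3A, which encodes a catalytic subunit of oligosaccharyltransferase, with a signal of 141. Its window, 50 bases to each side, is shown as an example of a match to the Dref site inside a bound intron.
Stt3A, chrX:21053241-21053341: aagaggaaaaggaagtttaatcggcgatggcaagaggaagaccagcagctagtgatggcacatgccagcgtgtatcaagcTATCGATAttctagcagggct
That site ranked 2589 in replicate 1 and 641 in replicate 3.

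The GAGA factor site GAGAGAG was in 27 windows (5.63%, 3.89 to 8.06%), with 6.15% of flanks, 5.58% of promoter peaks and 2.69% (2.59 to 2.80%) of unbound windows. The Zelda site CAGGTA was in 5.83% (4.07 to 8.30%), against 4.06% of flanks and 3.57% of unbound windows, and the GATA site AGATAAG in 4.38% (2.88 to 6.60%), against 3.02% and 2.85%. The E-box CAGCTG was in 7.71% (5.64 to 10.4%), against 10.3% of flanks, 13.9% of promoter peaks and 7.31% of unbound windows. The E-box CACCTG was in 5.42%, against 6.88% of flanks and 6.11% of unbound windows. The E-box CACGTG was in 2.71%, against 2.40% of flanks and 2.40% of unbound windows. The AP-1 site TGAGTCA was in 9 windows (1.88%), against 2.29% of flanks and 2.33% of unbound windows. The Gcm site was in 2 (0.417%), against 1.04% of flanks and 0.95% of unbound windows. The Ets site CCGGAAG was in 1 (0.208%), against 0.417% of flanks and 0.798% of unbound windows. One of the 2 Gcm matches was that at CG9663. A match to these letters is a description of the window and not evidence of a bound site.

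**Figure D5:**
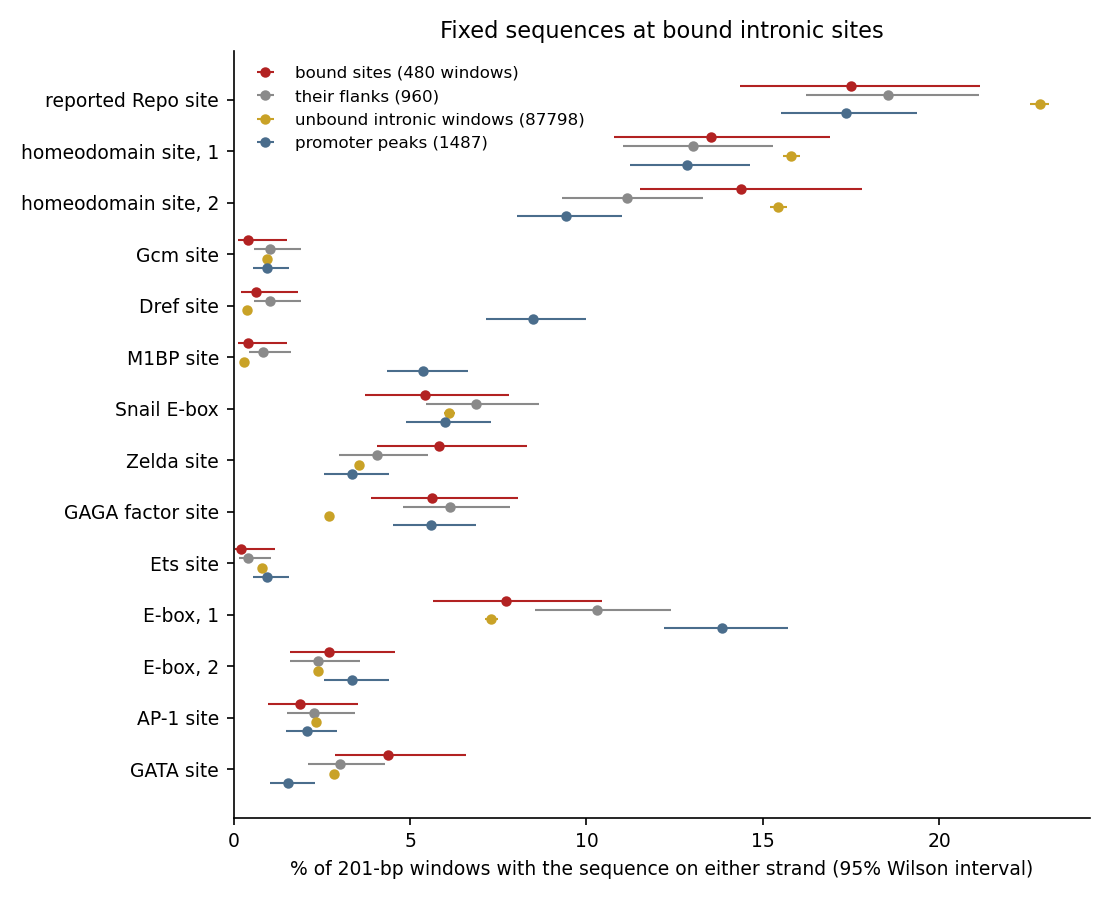
Share of windows of 201 bp that hold each of 14 fixed sites on either strand (horizontal, %, with 95% Wilson intervals) for bound sites (red), their flanks (grey), unbound windows of eligible introns (yellow) and promoter peaks (blue). Homeodomain site 1 is TAATTA and 2 is TAATGA, E-box 1 is CAGCTG and 2 is CACGTG. The red and grey intervals overlap for each of the 14, and the Dref and M1BP sites are at their highest at promoter peaks.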

How the data were processed

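Repo-GFP ChIP-seq peak lists on dm6 were used, from replicates 1 and 3, from both pooled, and the optimal list kept after the irreproducible discovery rate (IDR) analysis, as the labels name them. Each list gives the authors' signal value per peak, deposited with no statement of its scale, and the deposited offset of the summit from the peak's start. The replicate and pooled lists hold 30000 peaks each. The dm3 lists were not used. The sources used here do not say how reads were aligned, how peaks were called or which IDR threshold was applied.

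Summits were placed 1-based on dm6 and classed by Ensembl release 115, with every annotated exon counted, those of transposable elements included. Sequences came from the RefSeq release 6 assembly. Python 3.11.15, numpy 2.4.6, scipy 1.17.1 and matplotlib 3.10.9 were used. Shares carry Wilson 95% intervals and medians exact order-statistic 95% intervals. The scripts were tested on simulated data. No test was run: 1 group of 2 replicates allows none, and peaks and genes are not replicates. A gene could host a site when it was under 40 kb with at least 1 base meeting the position rule. Motifs were searched as exact letters on both strands.

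Named genes are the hosts of the 20 highest sites, up to 12 hosts with 3 or more sites, hosts in cell type lists, sites at the rule's limits, the farthest site and the 5 sites with CAATTA nearest the summit. Other hosts named from pathway lists were chosen after their values were seen. The bound sites, the 14 motifs and the 18 gene lists were chosen with earlier results of these data known. Of the list entries, 790 distinct genes were matched and 17 entries were not. The counts of 1 gene list and the sequences of some sites are not reported here.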

Additional observations from a re-analysis of the deposited data

How the results depend on the processing

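With the 1348 highest optimal peaks there were 248 sites and 48 listed hosts. Of the pooled-list peaks of this location 4.80% were kept, against 4.49% of the whole pooled list. The median signal was 177, 96.4% were in both replicates and 24.9% of hosts had a bound promoter (8.32% of other eligible genes). With hosts under 20 kb there were 288 sites, a median TSS distance of 1445 bp and 42 listed hosts. Under 80 kb the values were 2337 bp, 76.7% in first introns (49.6% of eligible bases) and 123 listed hosts. Over 250 bp from a TSS the distance was 1436 bp and the bound-promoter share 47.4% (14.3% of other eligible genes). Sites between 250 and 500 bp can here count as the bound promoter of their own host, so this share is raised by the definition. Over 1000 bp the distance was 2824 bp and the first-intron share 77.0% (50.3% of eligible bases). With gene starts only as TSSs 10.8% of peaks were kept (8.99% of the whole pooled list). The distance was then 3085 bp and the bound-promoter share 26.4% (13.7% of other genes). With promoters of 1000 bp that share was 59.2% (16.8%). The 119 sites at 501 to 1000 bp then lie within promoters and can count as the bound promoter of their own host. This share is thus raised by the definition. Agreement was 63.1% with 50% overlap of peaks and 99.4% with all peaks. CAATTA was in 9.38% of windows of 50 bp either side (flanks 9.27%) and 31.5% of 200 bp (flanks 35.2%). Its share, below the flanks in the report, was above them in those 50 bp windows, with hosts under 20 kb (20.1 and 17.2%), without replicate 1 (18.4 and 17.9%) and without replicate 3 (18.8 and 18.1%), and the cause was not tested.

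Leaving out replicate 1, by keeping optimal peaks found among the 2697 highest of replicate 3, gave 424 sites, and leaving out replicate 3 in the same way gave 398. Both settings keep peaks of a list that was derived from both libraries. Kept shares ranged from 7.71 to 8.21%, against 7.43 to 7.67% of the whole pooled list, and median signals from 133 to 139. Bound-promoter shares ranged from 33.3 to 34.3%, against 12.9 to 13.0% of other eligible genes. Not counting transposable elements as exons, an alternative chosen after seeing the data, gave 482 sites. Of the shares of the other 13 motifs under these alternatives, 22 moved and 134 did not. No paired analysis was possible because the study has 1 group. Read depth is unknown, and what it limits cannot be given.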
